A study of Mus musculus with 4 samples.

Results

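Cytosolic ribosomal proteins are the protein components of the ribosomes that translate nuclear-encoded mRNA. They were taken from the arrays by name: every probe whose gene name began with Rpl or Rps and a digit (or p and a digit), plus Rpsa, without the S6 kinases (Rps6k) and names marked as pseudogenes. This rule found 196 probes of 39429, which carried 87 gene names of 29676. Of these names, 31 were proteins of the small subunit, 45 were proteins of the large subunit, 10 were paralogs or retrotransposed copies, and 1, Rps19bp1, encodes a protein that binds Rps19 and is not itself part of the ribosome.

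All 4 arrays had 1 colour and came from astrocyte-enriched cultures (AECs): mixed glial cultures of newborn ICR mouse cortex from which microglia were depleted with pexidartinib, an inhibitor of the receptor CSF1R. Total RNA came from untreated AECs (n = 2) and from AECs kept in oxygen–glucose deprivation (OGD), a culture model of ischemia, for 15 h (n = 2). The cultures carried no transgene, and controls and OGD samples shared the depletion. The study states that the cultures still held oligodendrocytes and possibly NG2 glia. The 4 samples shared a slide and a scan.

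A ribosome has a small subunit, which reads the mRNA, and a large subunit, which joins the amino acids, and each cytosolic ribosomal protein (named Rps for the small and Rpl for the large subunit) is made in amounts that match the others. Most of their mRNAs begin with a C followed by a run of pyrimidines, the 5′ terminal oligopyrimidine (TOP) tract. Through this tract the kinase mTOR, acting with the 4E-BP proteins and Larp1, sets how much of these mRNAs is translated when nutrients or oxygen run short. An array measures the mRNA and not its translation.

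Runs of pyrimidines near the annotated start are shown for 7 of the genes named below, as candidates for the TOP tract. These genes span much of the family's range of change after OGD. Each line has 30 bases around the annotated start, 15 before it and 15 from it on, from RefSeq promoters on GRCm38.p6, 5′ to 3′ on the transcript's strand. Capitals mark a C followed by at least 5 bases that are each C or T, with the first C at most 10 bases from the start. In the 7 genes this C lay between -8 (Rpl14) and 6 (Rpl39) bases from the annotated start, so the runs are not shown to be terminal.
Rps9, chr7:3704026-3704055, plus strand: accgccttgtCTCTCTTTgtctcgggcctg
Rpl12, chr2:32961697-32961726, plus strand: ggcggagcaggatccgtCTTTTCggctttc
Rplp2, chr7:141447636-141447665, plus strand: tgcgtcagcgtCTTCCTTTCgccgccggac
Rps27, chr3:90213634-90213663, minus strand: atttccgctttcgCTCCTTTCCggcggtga
Rpl39, chrX:37085208-37085237, minus strand: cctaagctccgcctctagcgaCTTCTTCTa
Rps6, chr4:86857353-86857382, minus strand: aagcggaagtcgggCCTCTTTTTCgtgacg
Rpl14, chr9:120571502-120571531, plus strand: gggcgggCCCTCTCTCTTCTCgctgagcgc

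Of the 75 core genes with a full set of values (below), 55 had a promoter in the table. Of these, 30 (54.5%) held such a run on the transcript's strand, against 21.1% of 27025 genes searched in the same way. The other strand was not searched. The median log2 fold change was 0.85 in the 30 genes with a run and 0.81 in the 25 without one. Both groups spanned most of the family's range, from 0.47 to 1.23 with a run and from 0.17 to 1.26 without one. Annotated starts can lie some bases away from the start used in these cells, so a missing match says only that the letters were not in this window.

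Cell type markers and whole-array signals were examined first, since they touch every result below. On a scale where each array was centred on the 75th percentile of its own log2 signals (the methods' scaling, used below unless another is named), all 10 astrocyte markers were well above background on every array. Over all probes tested, 37.9% were higher and 27.1% lower on this scale, which are the shares to set beside the marker counts. The median log2 fold change of the astrocyte markers was 0.67, with 6 higher and 1 lower, Sox9, which fell by 1.52 (adjusted p = 0.001). Of 8 microglial markers, 3 were higher, 1 was lower and 4 did not pass the test. In untreated AECs the brightest of them were Itgam, at 3328 and 2726 units, and Cd68, at 1157 and 1213, and after OGD Itgam gave 1376 and 1015 and Cd68 4301 and 3778. Csf1r, Tmem119 and Aif1 gave between 27.9 and 235 units on the 4 arrays, and P2ry12, Ptprc and Cx3cr1 at most 21.5. Scaled medians were 0.03 for 8 oligodendrocyte markers (3 higher, 3 lower), -0.72 for 3 NG2 glia markers (1 higher, 1 lower) and -0.01 for 6 neuronal markers (3 higher, 2 lower). Of 4 meningeal fibroblast markers with a full set of values, 1 was lower, and their median was -0.20.

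Unscaled sums of marker signals are given beside the 75th percentile of all probes, which went from 2135 and 2164 in untreated AECs to 887 and 776 after OGD. The astrocyte sum went from 358848 and 321649 to 201918 and 180696. The oligodendrocyte sum went from 62163 and 63420 to 23260 and 19734, and the meningeal fibroblast sum from 25362 and 21809 to 9099 and 6142. Sums were 564 and 625, then 312 and 241, for NG2 glia, and 17834 and 17168, then 7675 and 6504, for neurons. The microglial sum was 4971 and 4420, then 5979 and 5069, most of it Cd68 after OGD. The part of these cell types in the results was not tested, and fewer cells of a type cannot be told apart from less RNA per cell.

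The processed signals of the core genes were slightly dimmer after OGD, but they dimmed much less than most probes. Each gene was represented by its brightest probe with a value on all 4 arrays, which gave 75 of the 76 core genes. Rps21, a small subunit protein, has 1 probe, with an outlier spot on OGD replicate 1, and was left out. The median signal of the 75 genes was 70983 and 66299 in untreated AECs, and 52548 and 44096 after OGD. The 75th percentile of all probes went from 2135 and 2164 to 887 and 776.

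**Figure D1:**
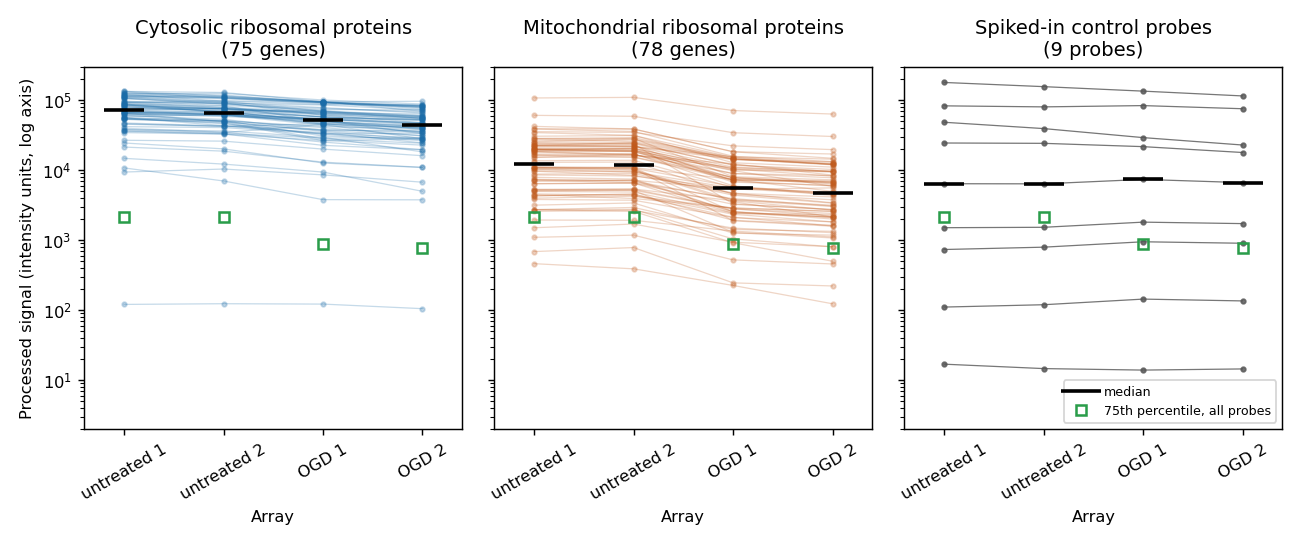
Processed signal (log axis) on each array for 75 core cytosolic ribosomal protein genes, 78 mitochondrial ribosomal protein genes and 9 spiked-in control probes, with lines joining a probe's values, black bars for medians and green squares for the 75th percentile of all probes. The median of the cytosolic genes went from 70983 and 66299 to 52548 and 44096, a smaller drop than that of the 75th percentile, from 2135 and 2164 to 887 and 776.

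Both OGD signals were below both untreated signals for 72 of the 75 genes and for 189 of 193 tested member probes, where 89.7% of all 28258 probes tested behaved this way. After the 75th-percentile scaling, both OGD values were above both untreated values for 73 of the 75 genes and for 171 member probes, against 49.3% of all probes. Members took 5.55% and 5.16% of the summed signal of all probes in untreated AECs and 6.40% and 6.28% after OGD (exact permutation test, two-sided p = 0.333, the smallest p that 2 against 2 arrays allow). This share is one of probe signals, not of RNA molecules.

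Relative to the 75th percentile, transcripts of nearly the whole ribosome were higher after OGD, and this direction turned when arrays were scaled on spiked-in controls. Of the 193 member probes tested, 146 (75.6%) were higher at an adjusted p under 0.05, where 37.9% of all probes were, and 2 were lower, where 27.1% of all probes were. The remaining 3 of the 196 probes, both of Rpl10l and the 1 of Rpl39l, were too dim to test. Of the 75 core genes, 71 were higher, and Rps3, Rpl8, Rpl4 and Rpl24 did not pass the test. The median log2 fold change of the core genes was 0.85 (1.80-fold), with a standard deviation of 0.24 between genes, where the median of all probes was 0.18. The count of higher probes was 85 without untreated replicate 2. A change of more than 2-fold as well was seen for 30 member probes (15.5%), close to the 13.9% of all probes. On their brightest probes, 23 of the 75 core genes (30.7%) passed this limit.

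The arrays also carry probes for spiked-in control transcripts, which Agilent's kits add to each RNA sample in set amounts, though the methods do not describe that step. On a scale centred on the mean of 9 such probes, the core median was -0.44 and that of all probes was -1.11. On this scale 156 member probes (80.8%) were lower by limma at an adjusted p under 0.05, near the 81.9% of all probes. Of the 75 core genes, 51 (68%) were lower. No member probe was higher (4.47% of all probes were), and the count at an unadjusted p under 0.05 was 0 as well. The control probes did not move as one. Ordered from dim to bright, those between the dimmest and the 3 brightest changed by 0.28, 0.28, 0.22, 0.13 and -0.30 on the log2 scale of the processed signal. The 3 brightest changed by -0.75, -0.04 and -0.43, and the dimmest changed by -0.15. With the 3 control probes as bright as the bulk of the core genes, the core median was -0.16.

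Quantile normalization, which gives every array the same distribution of signals, left the core genes with a median of 0.015, against 0.012 for all probes. On each array the median core gene ranked near the top, at percentile 99.2 and 99.3 in untreated AECs and 99.3 and 99.2 after OGD. This normalization gives equal ranks equal values, so a core median near 0 restates these ranks and cannot decide the direction. There, 28 member probes were higher and 9 lower, where 30.7% and 29.7% of all probes were. Under scaling by any one number per array, the core genes stayed 0.67 log2 units above the median of all probes tested, and under a normexp background correction they stayed 0.23 above it. This gap also depended on the probes counted. It was 0.43 without the detection filter and 0.59 with only probes well above background on every array. The direction of the family's change thus depended on the reference. The family was higher against the 75th percentile and lower against the spike-ins, where the share of lower member probes was near that of all probes. After quantile normalization its median was near 0, which follows from the ranks.

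**Figure D2:**
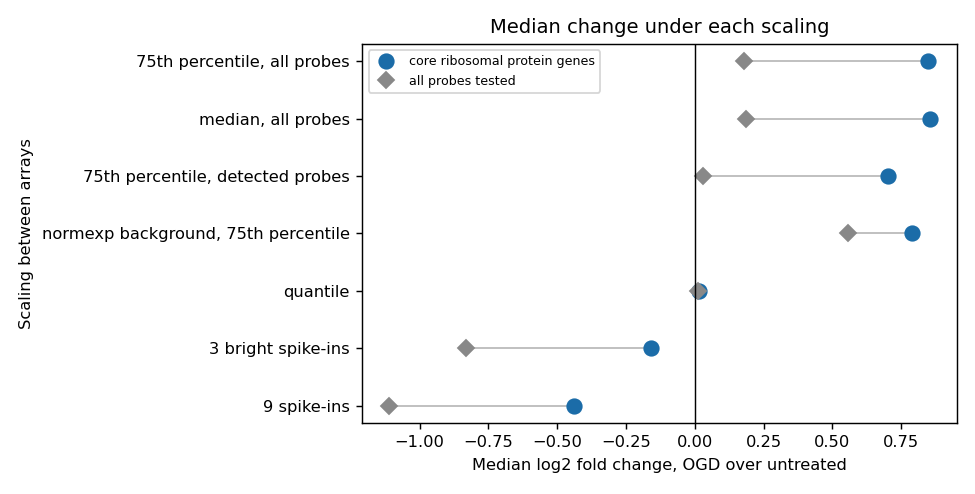
Median log2 fold change (OGD over untreated) of the 75 core genes (circles) and of all 28258 probes tested (diamonds) under 7 scalings between arrays. The core median was 0.85 with the 75th percentile, 0.015 with quantile normalization and -0.44 with 9 spike-ins, and it lay above the median of all probes in each, by 0.0029 with quantile normalization.

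Transcripts of the 2 subunits had similar medians. The median log2 fold change was 0.84 in 30 small subunit genes, 29 of them higher, and 0.85 in 45 large subunit genes, 42 of them higher. On the spike-in scale these medians were -0.45 and -0.43, and after quantile normalization they were 0.0099 and 0.015. The median level of the small subunit minus that of the large subunit was 0.17 and 0.14 in untreated AECs and 0.03 and -0.02 after OGD on the log2 scale, a change of -0.15 (exact permutation test, two-sided p = 0.333).

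**Figure D3:**
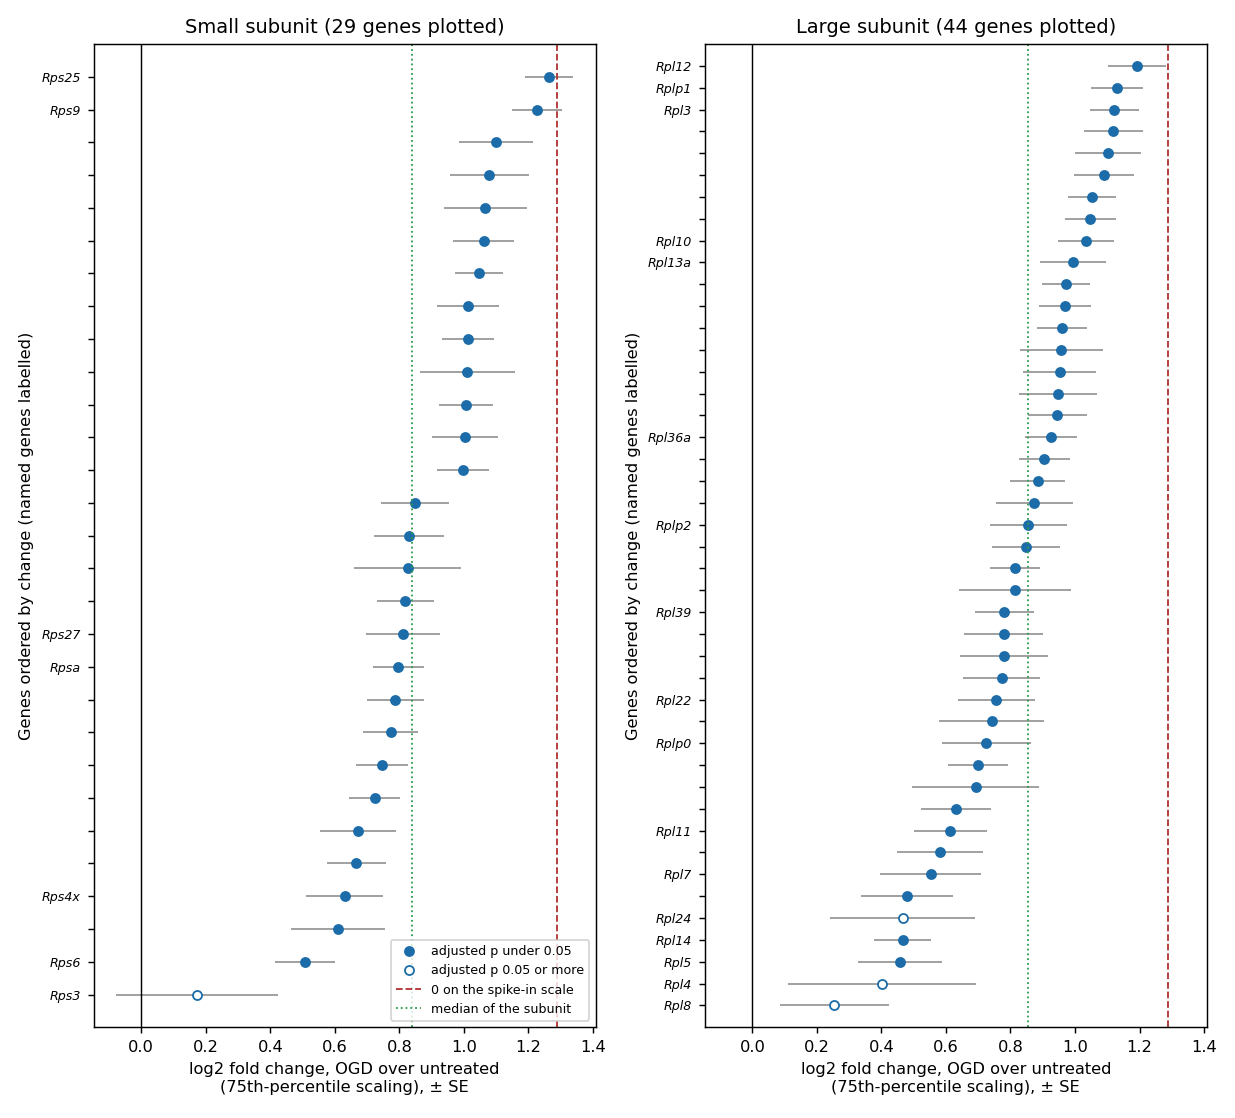
Log2 fold change (OGD over untreated, 75th-percentile scaling) with its SE for 73 of the 75 core genes in 2 panels by subunit, ordered by change and labelled where the text names them, with filled points for an adjusted p under 0.05, a solid line at 0, a dotted line at the subunit's median and a dashed line at the value that is 0 on the spike-in scale. Those plotted ran from 0.17 (Rps3) to 1.26 (the dim probe of Rps25), all above 0, and all lay left of the dashed line, that is, below 0 on the spike-in scale, while 36 of the 73 were below 0 after quantile normalization.

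Rps9, Rpl12 and Rps25 were among the 5 core genes with the largest scaled changes, and their own signals differed little between the groups. Rps9, a small subunit protein at the mRNA entry channel, gave 92442 and 97700 in untreated AECs, and 92287 and 79776 after OGD. The values of OGD replicate 1 and untreated replicate 1 nearly coincided, and the scaled log2 fold change was 1.23 (SE 0.08, adjusted p = 0.001; -0.06 on the spike-in scale). Rpl12, a protein at the base of the large subunit's stalk, gave 76577 and 70524, and then 70093 and 59943, with both OGD signals below both untreated ones. Its scaled change was 1.19 (SE 0.09, adjusted p = 0.002), and its other probe changed by 0.75 (adjusted p = 0.024).

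Rps25, a small subunit protein needed by some viral entry sites on mRNA, was represented by a dim probe, because its bright one lacked a value on untreated replicate 1. The dim probe gave 121 and 124, then 122 and 105, with a scaled change of 1.26 (SE 0.07, adjusted p = 0.001). The bright probe gave 28066 in untreated replicate 2, and 18991 and 15249 after OGD, a difference of 0.66 that rests on 1 untreated array and is given without a test.

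The probes of Rps9 and Rpl12 behind these values lie in coding sequence and are shown, with that of Rpl3, a large subunit protein near the catalytic centre, to place what was measured. Each has 60 bases, 5′ to 3′ on the transcript's strand, with the span on mm9 given by the array's annotation, which crosses introns where it is longer than the probe.
Rps9, chr7:3658287-3658346, plus strand: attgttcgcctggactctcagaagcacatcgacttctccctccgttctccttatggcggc
Rpl12, chr2:32819082-32819298, plus strand: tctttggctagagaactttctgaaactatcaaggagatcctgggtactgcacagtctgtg
Rpl3, chr15:79908489-79908772, minus strand: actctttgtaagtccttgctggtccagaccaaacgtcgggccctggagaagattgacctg

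The smallest scaled changes belonged to Rps3, Rpl8, Rpl4, Rpl5 and Rpl14. Rps3, a small subunit protein that also acts in DNA repair, gave 10738 and 6991 in untreated AECs, and 3784 and 3762 after OGD. The untreated replicates lay far apart, and the scaled change of 0.17 did not pass the test (SE 0.25, adjusted p = 0.573). Its second complete probe changed by 0.10 (adjusted p = 0.324), and its remaining probe, which had 1 untreated array and is given without a test, by 1.58, with OGD replicates at 14249 and 4310.

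Rpl8, a large subunit protein near the peptidyl transferase centre, gave 64745 and 48921, then 27772 and 24174. Both OGD signals were far below both untreated ones, and the scaled change of 0.25 did not pass the test (SE 0.17, adjusted p = 0.255). Its other probe was higher by 0.69 (adjusted p = 0.008) on the same scale. Rpl4, which lines the exit tunnel, changed by 0.40 (SE 0.29, adjusted p = 0.286), and its OGD replicates, 9368 and 4975, lay further apart than its untreated ones, 14715 and 12174. The value was 0.76 without OGD replicate 2 and 0.04 without OGD replicate 1. The first of these passed the test, but each fit had 1 OGD array, so the spread between replicates came from the untreated pair alone.

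Rpl5 and Rpl11 carry 5S rRNA into the large subunit and, outside the ribosome, bind Mdm2. Rpl5 gave 24363 and 20070, then 12610 and 10895, and was higher on the 75th-percentile scale by 0.46 (SE 0.13, adjusted p = 0.042), against -0.83 on the spike-in scale. This call was lost with the methods' t-test (0.138), with the replicate block (0.055), with no filter (0.069), with the 75th percentile of detected probes (0.107) and with each array left out (adjusted p from limma of 0.054 to 0.179). Rpl11 gave 105832 and 91915, then 60667 and 55929, and was higher by 0.61 (SE 0.11, adjusted p = 0.013), against -0.67 on the spike-in scale, a call lost with the methods' t-test (0.067) and without untreated replicate 2 (0.50, adjusted p = 0.084). Rpl14 was higher by 0.47 (SE 0.09, adjusted p = 0.014), against -0.82 with spike-ins and -0.40 after quantile normalization, and its other probes changed by 0.45 and 0.83. For all 3 genes the OGD signals lay below the untreated signals without overlap.

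Ribosomal proteins with a named second role or site were also followed. Rps6, the target of the S6 kinases downstream of mTOR, gave 55465 and 50863 in untreated AECs, and 30582 and 27781 after OGD. It was higher by 0.51 on the 75th-percentile scale (SE 0.09, adjusted p = 0.013), against -0.78 on the spike-in scale and -0.27 after quantile normalization. Its other 2 probes were higher by 0.96 and 0.75 (adjusted p = 0.002 and 0.003), so its low value came from 1 of 3 probes. Without untreated replicate 1 or 2, the call of Rps6 was lost (0.58 and 0.44, adjusted p = 0.060 and 0.104), as was that of Rpl14 (0.53 and 0.40, adjusted p = 0.069 and 0.119).

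The stalk proteins Rplp0, Rplp1 and Rplp2 recruit elongation factors to the large subunit. Their scaled changes were 0.72 (SE 0.14, adjusted p = 0.014), 1.13 (SE 0.08, adjusted p = 0.002) and 0.85 (SE 0.12, adjusted p = 0.006), and on the spike-in scale all 3 were negative. The call of Rplp0 was lost without untreated replicate 2 (0.58, adjusted p = 0.077) and, like that of Rplp2, with the methods' t-test (0.082 and 0.0501). Rplp1 gave 94564 and 90544, then 84864 and 72074. Its signal dimmed least of the 3, and Rplp0's, from 106242 and 88269 to 69512 and 54884, dimmed most.

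Rpl13a, which can leave the ribosome to silence inflammatory mRNAs, changed by 0.99 (SE 0.10, adjusted p = 0.003), and a second complete probe by 1.00. Rpsa, also known as a laminin receptor, changed by 0.80 (SE 0.08, adjusted p = 0.003) on its brightest probe. Its 4 probes ran from -0.13 to 0.92.

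Other ribosomal proteins have names outside the rule, among them Fau, which is made fused to a ubiquitin-like protein, and Rack1, a signalling scaffold on the small subunit. Both were higher on the 75th-percentile scale, by 0.93 and 0.82 (adjusted p = 0.003 and 0.007), near the core median of 0.85, and their changes on the spike-in scale were -0.35 and -0.46. The call of Rack1 was lost with the methods' t-test (0.052) and without untreated replicate 1 or 2 (adjusted p = 0.0504 and 0.062).

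Within the family, members were compared with its own median, so that any scaling by one number per array drops out. With each array centred on the median of the 75 core genes, 2 of 193 member probes were higher (7.99% of all probes were) and 35 were lower (61.0% of all probes were). These 37 calls were mostly of other probes of a gene or of names outside the core. On their brightest probes, 2 of the 75 core genes were higher and 5 were lower. The count of 37 was 10 without untreated replicate 1 and 15 without untreated replicate 2. Core genes below the family median were Rps3 by -0.69 (adjusted p = 0.028), Rpl8 by -0.61 (adjusted p = 0.014), Rpl5 by -0.40 (adjusted p = 0.038), Rpl14 by -0.40 (adjusted p = 0.030) and Rps6 by -0.35 (adjusted p = 0.049). Of these, Rpl8's other probe (adjusted p = 0.273), both other probes of Rps6 (0.486 and 0.491) and both of Rpl14 (0.082 and 0.858) did not pass this test. The dim probe of Rps25 was above it by 0.40 (adjusted p = 0.034). Rps9 at 0.36 (adjusted p = 0.053) and Rpl12 at 0.33 (adjusted p = 0.055) did not pass the test.

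Probes for the same ribosomal protein often gave different values. For 60 core genes with several tested probes, the range of log2 fold change between probes had a median of 0.40, exceeded 0.5 for 20 genes, and reached 1.87 for Rps15a, a small subunit protein chosen here after its values were seen. Its bright probes changed by 1.06 and 0.24, and its dim one, at 23.4 and 30.9 units and then 8.94 and 3.90, by -0.81 (adjusted p = 0.144). No gene had 1 probe higher and another lower past the test.

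Probe letters moved with these values. AATAAA, the signal that directs the poly(A) tail, was found on the probe's own strand in 61 of 184 core probes (33.2%), against 13.7% of all probes tested. The median change was 0.63 in core probes with it and 0.81 in those without, and over all probes it was 0.03 with it and 0.20 without. In 32 core genes with probes of both kinds, the probes with AATAAA had the lower median change in 25, and the difference had a median of -0.19 over all 32.

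By base composition, the median change was 0.54 in 64 core probes with at most 40% G and C, 0.85 in 85 probes between, and 0.89 in 35 probes with at least 50%. Over all probes tested, the medians in the same classes were 0.01, 0.25 and 0.35. At a share of at least 50%, all 35 core probes and 2249 of 5177 probes overall were higher on the 75th-percentile scale. At a share of at most 40%, 35 of 64 core probes and 4040 of 12195 overall were. Across the 184 core probes, Spearman's rank correlation of the change was 0.47 with G and C share and 0.48 with mean signal, against 0.15 and 0.20 across all probes tested. These probes share their arrays and often their gene, so these values are a description.

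The same letters also moved with the difference between the 2 untreated replicates. The log2 signal of untreated replicate 1 over untreated replicate 2 had a median of 0.27 in core probes with AATAAA and 0.10 in those without, and 0.27 at most 40% G and C against 0.06 at 50% or more. The rank correlation of this difference with G and C share was -0.50 across core probes and -0.01 across all probes tested. The part of RNA quality, or of any other difference between these 2 samples, in the changes above was not tested.

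**Figure D4:**
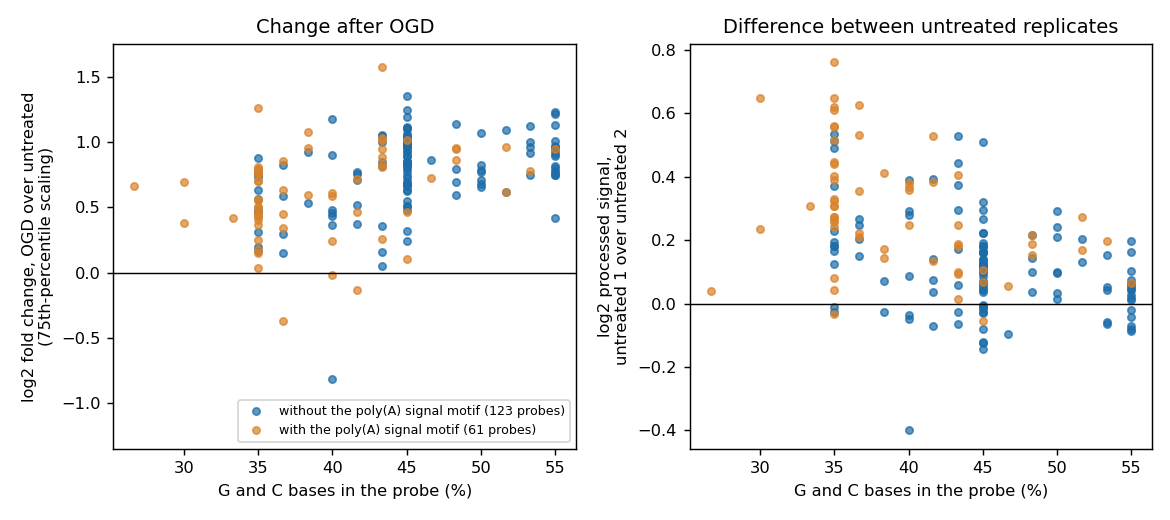
Each point is 1 of 184 core probes (orange with, blue without the poly(A) signal motif), plotted by its share of G and C bases against the log2 fold change after OGD on the 75th-percentile scale (left) and the log2 signal of untreated replicate 1 over untreated replicate 2 (right). Probes poor in G and C sat lower on the left (median 0.54 at most 40% and 0.89 at 50% or more) and higher on the right (0.27 against 0.06), and on the spike-in scale the left panel would shift down by 1 constant for all probes.

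Paralogs and copies were compared with their parent genes within each array, so that scaling by one number drops out. Rps4l, a copy of the small subunit gene Rps4x, was 1 of the 2 member probes that fell. It gave 1824 and 1796 in untreated AECs, and 470 and 415 after OGD. The groups stood far apart, and the scaled change was -0.66 (SE 0.08, adjusted p = 0.004; -1.95 with spike-ins and -0.63 after quantile normalization). Rps4x gave 39495 and 34843, then 25108 and 19562, a scaled change of 0.63 (adjusted p = 0.014). Without untreated replicate 1 the calls of Rps4l (-0.64, adjusted p = 0.0501) and Rps4x (0.73, adjusted p = 0.052) were lost, and that of Rps4x also without untreated replicate 2 (0.53, adjusted p = 0.094) and with the methods' t-test (0.074). The difference Rps4l minus Rps4x moved by -1.29 (exact permutation test, two-sided p = 0.333), with both OGD arrays below both untreated arrays.

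The other member probe that fell was that of Rps19bp1, the Rps19-binding protein, which also regulates the deacetylase Sirt1. It gave 11965 and 12229, then 3639 and 2898. The groups stood far apart and the replicates close together, and the change was -0.52 (SE 0.09, adjusted p = 0.010; -1.81 with spike-ins and -0.77 after quantile normalization). Without untreated replicate 1, 0 member probes were lower, and without untreated replicate 2, 1 was.

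Rpl7l1, which is related to Rpl7 and found in the nucleolus, changed by 0.07 (SE 0.10, adjusted p = 0.562), with signals of 734 and 712, then 332 and 259. Its difference from Rpl7, which changed by 0.55 (adjusted p = 0.041), moved by -0.48, but by 0.36 after quantile normalization. The call of Rpl7 was lost with the methods' t-test (0.149), with no filter (0.065), with the 75th percentile of detected probes (0.083) and with each array left out (adjusted p from limma of 0.058 to 0.171). Rps27l, a paralog induced by p53, changed by 0.49 (SE 0.20, adjusted p = 0.098), and its difference from Rps27 moved by -0.32. In both pairs the OGD differences lay below the untreated ones (exact permutation test, two-sided p = 0.333 for each).

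Rpl22l1 is held down by its parent protein Rpl22 in other cells. Rpl22l1 changed by 0.67 (SE 0.19, adjusted p = 0.043) and Rpl22 by 0.76 (adjusted p = 0.009), and their difference moved by -0.08 (exact permutation test, two-sided p = 1), or by 0.22 without OGD replicate 2 and 0.05 after quantile normalization. The call of Rpl22l1 was lost with the methods' t-test (0.163), with no filter (0.065), with the 75th percentile of detected probes (0.073) and without untreated replicate 1, untreated replicate 2 or OGD replicate 1 (adjusted p from limma of 0.097, 0.190 and 0.075). That of Rpl22 was lost with the methods' t-test (0.058) and without untreated replicate 2 (0.065). Rpl36al and Rpl36a, whose proteins are nearly identical, changed by 0.87 and 0.93 (both adjusted p = 0.002), and their difference moved by -0.06 (exact permutation test, two-sided p = 0.667), or by 0.15 after quantile normalization.

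**Figure D5:**
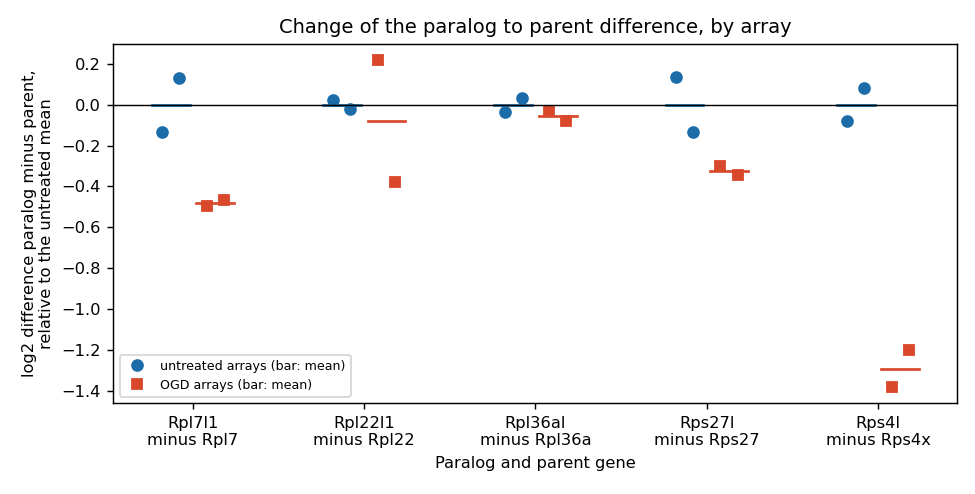
Log2 signal of each paralog minus that of its parent gene within an array, relative to the mean of the untreated arrays (circles, untreated; squares, OGD; bars, means of n = 2). The difference moved by -1.29 for Rps4l, -0.48 for Rpl7l1 and -0.32 for Rps27l, with the OGD arrays below the untreated arrays in these 3, while quantile normalization turned the sign for Rpl7l1, Rpl22l1 and Rpl36al.

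The 3 paralogs known from single tissues were at or near background. Rpl3l, the striated muscle form of Rpl3, gave 20.7 and 19.5, then 7.19 and 7.62, and was well above background on 3 arrays, with a scaled change of -0.07 (SE 0.13, adjusted p = 0.668). Under normexp it was 1.02 and passed as higher (adjusted p = 6.3e-05), and with 9 spike-ins it was -1.36 and passed as lower. Rpl10l, a testis form of Rpl10, gave at most 4.90 on its brighter probe and was not well above background on any array. Rpl39l, known from testis and tumours, gave 6.996 and 22.2, then 2.66 and 3.94, and was well above background on 1 array. The parents Rpl3, Rpl10 and Rpl39 were higher on the 75th-percentile scale by 1.12, 1.03 and 0.78 (adjusted p = 0.001, 0.002 and 0.004), and at -0.17, -0.25 and -0.51 on the spike-in scale.

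Mitochondrial ribosomal proteins, made in the cytosol for the ribosomes of mitochondria, were the closest comparison. Of 78 such genes, 32 were higher and 8 lower on the 75th-percentile scale, where 37.9% and 27.1% of all probes were. On the spike-in scale 77 were lower, where 81.9% of all probes were. On the first scale their log2 fold changes had a median of 0.24 (-1.05 on the spike-in scale and -0.18 after quantile normalization), compared with 0.85 for the cytosolic genes. The median level of the cytosolic genes minus that of the mitochondrial genes was 2.57 and 2.48 in untreated AECs and 3.24 and 3.24 after OGD on the log2 scale. The groups did not overlap, and the difference of 0.72 (exact permutation test, two-sided p = 0.333) is the same under any scaling by one number per array. The genes named here lie far from the list's median, and more of the list was higher than lower. Mrps30 was higher by 0.97 on the 75th-percentile scale (adjusted p = 0.005). Mrpl36, a mitochondrial large subunit protein and 1 of the 8 lower genes, fell by 1.58 (adjusted p = 0.001), from 22798 and 23578 to 3294 and 2707. Mrpl50, also among the 8, fell by 1.24 (adjusted p = 0.001).

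Other genes of the translation machinery were counted by their brightest probes. The shares of all probes to set beside these counts are 37.9% higher and 27.1% lower on the 75th-percentile scale, and 4.47% higher and 81.9% lower on the spike-in scale. In a list of 8 genes of elongation factors and of Tpt1, 6 were higher on the first scale (median 0.92) and 5 were lower on the second. Eef2, which moves the ribosome along the mRNA, was one of the 6, higher by 1.13 (adjusted p = 0.002). Tpt1, which is not an elongation factor but like ribosomal proteins has a TOP mRNA, was also one of the 6, higher by 1.11 (adjusted p = 0.003). Of 34 initiation factor genes, 25 were higher and 2 lower on the first scale (median 0.60), and 1 was higher and 26 lower on the spike-in scale. Eif4b, a helper of the helicase that unwinds mRNA, was higher by 2.25 and was the 1 initiation factor gene that passed as higher on the spike-in scale (0.96), its signal going from 2420 and 2608 to 5157 and 4109. Eif1, which guards the choice of the start codon, was higher by 1.47 (adjusted p = 0.001), against 0.18 on the spike-in scale. Eif5b, which joins the subunits, fell by 1.42 (adjusted p = 0.003), from 98.9 and 97.7 to 16.8 and 11.9.

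Of 35 ribosome biogenesis genes, 23 were higher and 3 lower on the 75th-percentile scale (median 0.63), and 2 were higher and 26 lower on the spike-in scale. The genes named here lie well above the list's median. Nolc1, a nucleolar chaperone, went from 5029 and 5552 to 6990 and 6642, a scaled change of 1.74 (adjusted p = 0.001), against 0.45 on the spike-in scale. Taf1d, part of the factor that starts RNA polymerase I, was higher by 2.14, Nip7, which acts in rRNA maturation, by 1.52, and Fbl, which methylates rRNA, by 1.49 (adjusted p = 0.002, 0.001 and 0.002). On the spike-in scale their values were 0.85, 0.24 and 0.20.

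Of 15 regulators of TOP mRNAs and of ribosomal genes, 7 were higher and 6 lower on the 75th-percentile scale (median -0.04), and 3 were higher and 10 lower on the spike-in scale. Myc, a transcription factor for ribosomal genes, rose from 1331 and 1390 to 6136 and 5937 (log2 fold change 3.52, and 2.23 on the spike-in scale; adjusted p = 0.001). Mtor was higher by 2.71 and its translational repressor target Eif4ebp1 by 1.90, and these too were positive on the spike-in scale (1.42 and 0.61). Mlst8, a partner of mTOR in its complexes, fell by 1.59, its signal going from 7990 and 8191 to 1065 and 1014. Its partner Rptor fell by 1.33, and Eif4ebp2, a target of the same kind as Eif4ebp1, fell by 1.38 (all adjusted p = 0.001). On the spike-in scale, the medians were -0.37 for elongation factors, -0.69 for initiation factors, -0.66 for ribosome biogenesis and -1.33 for the regulators, where all probes had -1.11.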

How the data were processed

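Per the labels, total RNA of untreated (n = 2) and OGD-treated AECs (n = 2) was amplified, labelled with Cy3 and hybridised to Agilent mouse arrays. The deposited files hold spot intensity values made by the authors with Agilent Feature Extraction, 11.5.1.1 per the file headers, with the background already subtracted. The deposited series table held the same values. Precision was limited by 2 arrays per group, and the methods describe separate cultures.

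Outlier-flagged spots were removed, spots of a probe were averaged, log2 signals were centred on each array's 75th percentile over all probes, and the 28258 probes detected well above background on both arrays of either group went into limma (version 3.58.1, R 4.3.3) and Benjamini-Hochberg adjustment at 0.05. A gene is its brightest probe with 4 values. Single values were tested by exact permutation (scipy). The tests were tried on simulated data. Named genes were the 5 largest and 5 smallest changes and 5 departures each way, the paralog pairs, Rps19bp1, Rplp0, Rplp1, Rplp2, Rps6, Rpl5, Rpl11, Rpl13a, Rpsa, Fau and Rack1, without some genes that are not reported here. In other lists, 2 to 4 genes with large changes and a known role were named. Members and lists were chosen with earlier results of these data known. Alternatives were other tests, filters, background correction, scalings, the replicate block, and each array left out.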

Additional observations from a re-analysis of the deposited data

How the results depend on the processing

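The family's direction depended on the scaling. The core median of 0.85 was -0.44 with 9 spike-ins. In alternatives chosen after seeing the data it was -0.16 with 3 spike-ins between the 5th and 95th percentile of the core signals, and -0.50 with the 7 within their whole range, which the dim Rps25 probe widened. It was 0.015 with quantile normalization, 0.70 with the 75th percentile of detected probes, 0.77 when each gene was the mean of all its probes, and 0.77 to 0.94 with 1 array left out. Higher member probes numbered 146, but 95 with the methods' t-test, 28 with quantile normalization, 0 with each spike-in scaling (limma, and 0 at an unadjusted p under 0.05), 30 with the 2-fold limit, and 85 to 139 with 1 array left out. Lower ones numbered 2, but 9 with quantile normalization, 156, 63 and 167 with the 9, 3 and 7 spike-ins, 0 with the 2-fold limit, and 0 to 3 with 1 array left out (limma, 3 at an unadjusted p under 0.05 where the count was 0). Departures from the family median numbered 37, and 10 to 36 with 1 array left out. All probes had 58.3% higher among calls, against 76.8% with normexp, 50.9% with quantile normalization, 49.8% with the 75th percentile of detected probes and 5.17% with 9 spike-ins.

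Paralog differences under quantile normalization were 0.36 (Rpl7l1), 0.047 (Rpl22l1), 0.15 (Rpl36al), -0.093 (Rps27l) and -0.59 (Rps4l), and Rps4l's was -1.16 with normexp. With 1 array left out they ranged from -0.61 to -0.35 (Rpl7l1), -0.38 to 0.22 (Rpl22l1), -0.09 to -0.02 (Rpl36al), -0.46 to -0.19 (Rps27l) and -1.38 to -1.20 (Rps4l). With quantile normalization 17 of 32 named genes turned sign, at -0.048 for Rps3, -0.50 for Rpl8, -0.054 for Rpl5, -0.40 for Rpl14, -0.23 for Rpl7, -0.0089 for Rpl22l1, -0.056 for Rpl22, -0.0081 for Rpl39, -0.15 for Rps27l, -0.052 for Rps27, -0.043 for Rps4x, -0.16 for Rplp0, -0.13 for Rplp2, -0.27 for Rps6, -0.27 for Rpl11, -0.034 for Rpsa and -0.029 for Rack1. The 9 spike-ins move every gene by the same amount, so genes with smaller positive values must turn; values were -1.11 for Rps3, -1.03 for Rpl8, -0.89 for Rpl4, -0.83 for Rpl5, -0.82 for Rpl14, -0.025 for Rps25, -0.063 for Rps9, -0.10 for Rpl12, -0.17 for Rpl3, -1.22 for Rpl7l1, -0.74 for Rpl7, -0.25 for Rpl10, -0.61 for Rpl22l1, -0.53 for Rpl22, -0.42 for Rpl36al, -0.36 for Rpl36a, -0.51 for Rpl39, -0.80 for Rps27l, -0.48 for Rps27, -0.66 for Rps4x, -0.56 for Rplp0, -0.16 for Rplp1, -0.43 for Rplp2, -0.78 for Rps6, -0.67 for Rpl11, -0.29 for Rpl13a, -0.49 for Rpsa, -0.35 for Fau and -0.46 for Rack1. Rpl7l1 was at -0.078 with the 75th percentile of detected probes, and Rpl3l was at 1.02 with normexp, where it passed as higher. With 1 array left out, Rpl7l1 ranged from -0.014 to 0.15, Rpl3l from -0.21 to 0.070 and Rps3 from -0.15 to 0.49, turning without OGD replicate 1, OGD replicate 1 and untreated replicate 2. The cause of these changes was not tested.

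Same-numbered samples deviated with a correlation of -0.03, so the numbers were not taken as pairs. With the replicate block, 147 member probes were higher, 2 were lower and 35 departed from the family median, the call of Rpl5 was lost and that of Rps27l gained. Calls were also lost for 9 of 32 named genes without untreated replicate 1 (Rpl5, Rpl14, Rpl7, Rpl22l1, Rps4l, Rps4x, Rps19bp1, Rps6 and Rack1), for 12 without untreated replicate 2 (the same without Rps4l, and Rpl22, Rps27, Rplp0 and Rpl11), for 3 without OGD replicate 1 (Rpl5, Rpl7 and Rpl22l1) and for 2 without OGD replicate 2 (Rpl5 and Rpl7), where that of Rpl4 was gained (0.76). The methods' t-test lost 9 (Rpl5, Rpl7, Rpl22l1, Rpl22, Rps4x, Rplp0, Rplp2, Rpl11 and Rack1), and no filter and the 75th percentile of detected probes lost 3 each (Rpl5, Rpl7 and Rpl22l1). Beside the genes that turned, quantile normalization lost the calls of 6, at 0.28 for Rps9, 0.23 for Rpl3, 0.082 for Rpl10, 0.25 for Rpl36a, 0.21 for Rplp1 and 0.017 for Fau. With 9 spike-ins Rpl3l passed as lower, at -1.36.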
